A study of Mus musculus with 38 samples.

Results

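The promoters of 8 genes of muscle that are known for their response to stretch, load or injury were followed through fasting-induced torpor in the mouse soleus: Tnc, Mybph, Ankrd1, Ankrd2, Csrp3, Xirp1, Thbs4 and Chad. Promoter activity was measured by nAnT-iCAGE, a cap analysis of gene expression without amplification. It captures the capped 5′ ends of RNA, so that each tag marks the base where a transcript started. A promoter here is a cluster of such tags with its highest peak no more than 500 bp, on the same strand, from a 5′ end that GENCODE gives for one of the genes. Of the 10819 clusters of the whole table, 9 met this rule and no gene was without a cluster, since Thbs4 had 2 clusters and each of the other genes had 1. Some of the genes were chosen by their levels in the HiT group, so all values that set HiT against another group are given as a description and were not tested.

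Each of the 38 libraries came from the soleus, a postural muscle of the lower leg, of 1 young adult male C57BL/6J mouse that carried an implanted temperature sensor. Experiment #1 had 4 mice with free access to food on day 1 (Pre), 8 mice on day 2 after food was withdrawn to induce torpor (Mid) and 4 mice on day 3 after food was returned (Post). It also had 3 day 2 controls of 4 mice each, namely mice at a high ambient temperature (HiT), mice that kept their food at the low ambient temperature (Fed), and fasted mice that were touched so that they did not enter torpor (Dep). Experiment #2 repeated 3 of the groups with 2 Pre, 5 Mid and 3 Post mice. The labels and the paper differ on food for HiT and Fed: the methods of the paper describe HiT as fasted and Fed as fed, whereas the labels give HiT with food and tag Fed with starvation. With 1 library per mouse, p-values measure the spread between mice. In a whole muscle, fewer cells of a type and less RNA per cell cannot be told apart.

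Muscle fibers sense stretch at the Z-disc, where thin filaments of neighbouring sarcomeres are anchored, and along the I-band, where the spring of titin lies. Ankrd1 and Ankrd2 are ankyrin repeat proteins that bind titin there and can move to the nucleus, Csrp3 encodes the muscle LIM protein of the Z-disc, and Xirp1 encodes Xin, an actin-binding repeat protein of attachment sites that is a known marker of damaged fibers. Mybph is a myosin-binding protein of the thick filament. Outside the fiber, Tnc encodes tenascin-C, a matrix glycoprotein of the myotendinous junction and of healing tissue, Thbs4 encodes thrombospondin-4 of the tendon and muscle matrix, and Chad encodes chondroadherin, a leucine-rich matrix protein of cartilage and tendon that binds collagen and integrin. In general, such genes are raised in overloaded, stretched or regenerating muscle.

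The start sites lay close to the annotated ones. On mm10, the highest peak was at chr4:64046934-64046934 for Tnc, chr1:134193437-134193437 for Mybph, chr19:36119843-36119843 for Ankrd1, chr19:42036026-42036026 for Ankrd2, chr7:48848030-48848030 for Csrp3, chr9:120023568-120023568 for Xirp1 and chr11:94565047-94565047 for Chad. The peaks of Tnc, Ankrd1 and Xirp1 were 81, 67 and 30 bp downstream of the nearest 5′ end in GENCODE, those of Mybph and Ankrd2 were 11 and 12 bp upstream, that of Csrp3 was 3 bp downstream, and that of Chad was on it. The main Thbs4 cluster peaked at chr13:92794820-92794820, 2 bp upstream of the annotated 5′ end, and the second one peaked 198 bp upstream of that end. Both Thbs4 clusters are therefore kept apart below, and the levels of Thbs4 without further note are those of the main one.

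RefSeq (GRCm38.p6) had a start for 7 of the 8 genes, and the 150 bases before the start nearest to the CAGE peak are shown for 6 of them, so that motifs before the start can be set beside the measured peak. The window of Thbs4 is not shown. They are chr4:64046937-64047086 (minus strand), chr1:134193298-134193447 (plus), chr19:36119845-36119994 (minus), chr19:42035877-42036026 (plus), chr7:48848052-48848201 (minus) and chr11:94564897-94565046 (plus), all written 5′ to 3′. Capitals mark TATAAA or TATATA on either strand, the letters of a TATA box. They also mark the core of the M-CAT element, CATTCC, which appears here as its reverse complement.
Tnc: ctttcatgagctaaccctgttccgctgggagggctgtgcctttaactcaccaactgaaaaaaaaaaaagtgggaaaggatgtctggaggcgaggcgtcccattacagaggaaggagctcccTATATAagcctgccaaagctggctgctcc
Mybph: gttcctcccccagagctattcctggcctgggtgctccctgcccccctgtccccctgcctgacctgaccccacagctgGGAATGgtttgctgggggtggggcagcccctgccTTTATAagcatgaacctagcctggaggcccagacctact
Ankrd1: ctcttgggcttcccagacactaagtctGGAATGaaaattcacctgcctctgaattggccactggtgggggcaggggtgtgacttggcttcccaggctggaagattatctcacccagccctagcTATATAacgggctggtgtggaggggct
Ankrd2: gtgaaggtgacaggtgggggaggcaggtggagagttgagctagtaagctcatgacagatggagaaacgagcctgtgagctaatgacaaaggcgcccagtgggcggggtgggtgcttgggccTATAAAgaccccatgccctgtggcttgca
Csrp3: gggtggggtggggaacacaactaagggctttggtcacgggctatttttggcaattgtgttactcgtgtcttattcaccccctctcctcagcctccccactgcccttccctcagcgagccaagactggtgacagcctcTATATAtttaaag
Chad: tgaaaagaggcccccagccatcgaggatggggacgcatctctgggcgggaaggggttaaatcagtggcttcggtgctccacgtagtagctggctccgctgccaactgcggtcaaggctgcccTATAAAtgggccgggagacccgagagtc

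Each of these 6 windows held TATAAA or TATATA on either strand, against 9.49% of 32817 RefSeq promoter windows of the same length. The window of Thbs4 held neither. In Mybph the match was TTTATA, the reverse complement of TATAAA. The first base of the match was 31 bases upstream of the CAGE peak in Tnc, 28 bases in Mybph, Ankrd1, Ankrd2 and Chad, and 34 bases in Csrp3. TATA boxes in general lie at about this distance before a start site. No TATAAA overlapped a TATATA in them. The last 11 bases of the Mybph window lie at or after its CAGE peak. CATTCC stood in 2 windows, those of Mybph and Ankrd1, against 7.58% of all windows. The E-box CANNTG, searched in the same way and left in lower case, was in all 7 windows with a RefSeq start but also in 47.7% of all windows. TGANTCA, the CArG box and the MEF2 box were searched on both strands too, and none of the 7 windows held any of them. They stood in 4.24%, 0.917% and 0.332% of all windows. Xirp1 had no entry.

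Tnc, Mybph and Ankrd1 were far higher in HiT than in any other group of experiment #1. The level of Tnc, as tags per 1000000 mapped tags (TPM), was 159, 126, 52.3 and 84.7 in the 4 HiT libraries. It was at most 11.9 in the other 24 libraries. The mean of HiT was 23.3 times the mean of the others.

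Mybph, the thick filament gene, was at 102, 106, 85.3 and 59.2 TPM in HiT. No other library passed 11.6 TPM. The mean of HiT was 33.8 times the mean of the others. Ankrd1 was at 676.5, 642.9, 461.3 and 330.7 TPM in HiT and at most 107 elsewhere, a ratio of means of 9.45. For these 3 genes the HiT libraries did not overlap any other library, as was the case for 154 of 10776 promoters (1.43%).

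Ordered by the fitted log2 fold change from the HiT to Mid, Mybph (−5.77) was number 4, Tnc (−5.24) number 10 and Ankrd1 (−3.05) number 69 among 10776 promoters, of which 4.52% were at least 2-fold higher in HiT. Csrp3 was next of the genes, at number 454, with a log2 fold change of −1.05. It had 433, 460, 411 and 259 TPM in HiT, and the lowest of these was within the range of the Dep libraries, which reached 333 TPM. Its ratio of the HiT mean to the mean of the others was 2.08. Ankrd2 (0.03), Xirp1 (−0.03), Thbs4 (−0.01), its upstream cluster (0.25) and Chad (0.12) differed little between HiT and Mid by the same fit.

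**Figure D1:**
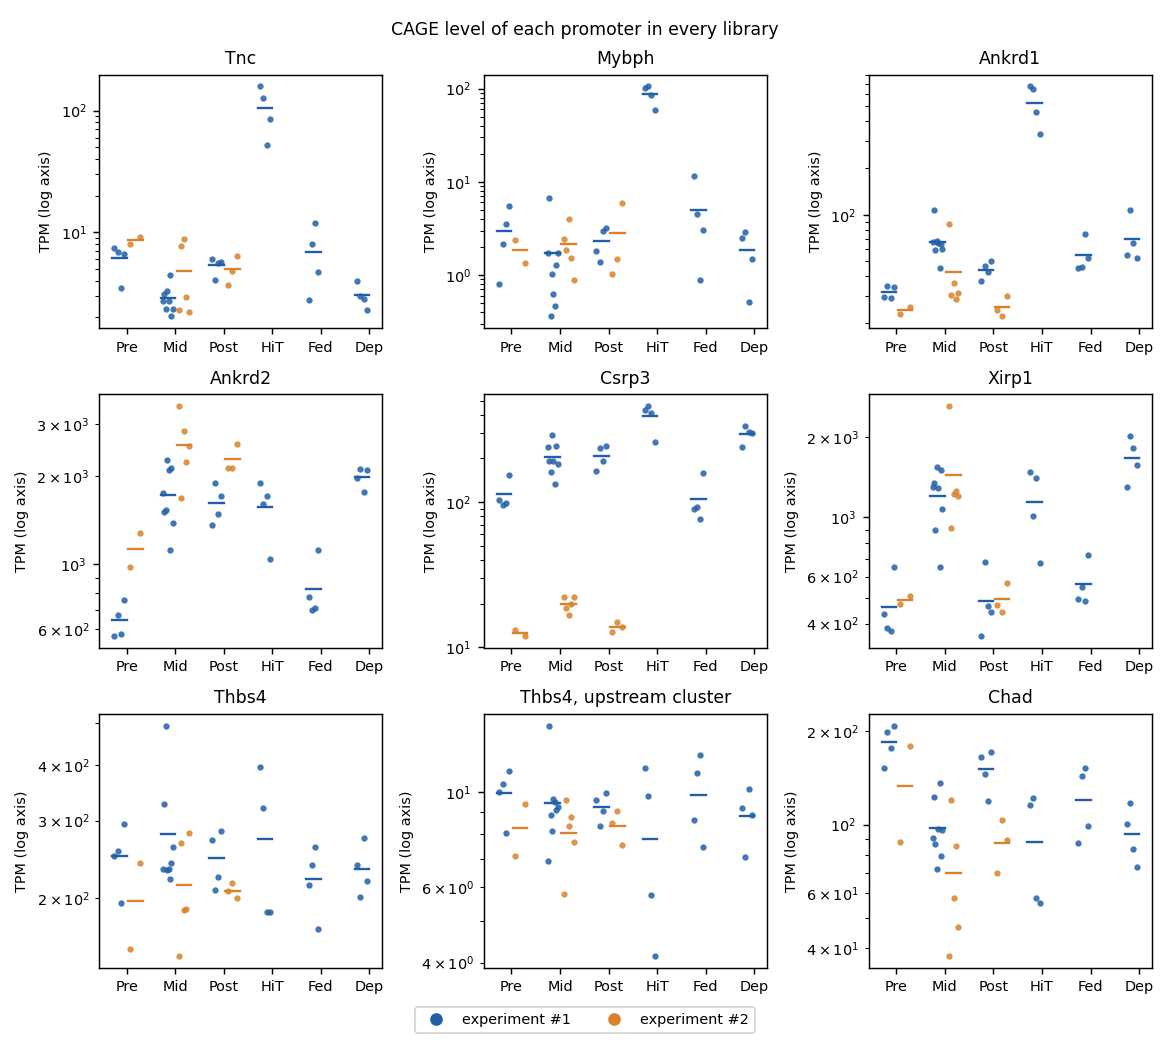
Level of each of the 9 promoters in TPM (log axis) by group, with 1 point per library, a bar for the mean of the group, experiment #1 in blue and experiment #2 in orange. Tnc, Mybph and Ankrd1 stand apart in the 4 HiT libraries, Ankrd2, Csrp3 and Xirp1 have higher means in Mid and Dep than in Pre and Fed, and Csrp3 is about 11.1-fold lower in experiment #2.

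The 4 HiT libraries also stood apart from the others in the summed level of macrophage markers. The summed level of the 7 macrophage markers with a cluster (of 9, Adgre1 and Cd14 having none) was 430, 283, 143 and 185 TPM in HiT replicates 1 to 4. The other libraries of experiment #1 had between 33.9 and 99.9 TPM. Cd68, a lysosomal protein and one of these macrophage markers, was at 10.8 to 23.7 TPM in HiT and at most 4.37 TPM in the other groups of experiment #1.

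The fibroblast sum (6 of 7 genes) was 5500, 3580, 2000 and 2740 TPM in HiT, and between 1200 and 2890 TPM in the other libraries. The sum of 8 slow muscle genes was 17500, 14000, 15800 and 8940 TPM in HiT and 15900 to 26200 TPM elsewhere in experiment #1. Slow genes were thus found in every library, but HiT replicates 2, 3 and 4 were below every library of the other groups. HiT replicates 1 and 2, which had the highest macrophage, fibroblast and tendon sums of the 4, also had the highest Tnc, Mybph, Ankrd1, Csrp3, Thbs4 and Chad. The same 2 libraries also had the highest sums of Z-disc and I-band genes (43900 and 40500 TPM, against 34700 and 23500 TPM), of fast muscle genes and of endothelial markers, and the highest TMM factors of the 4. The part of these cells in the levels was not tested.

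**Figure D2:**
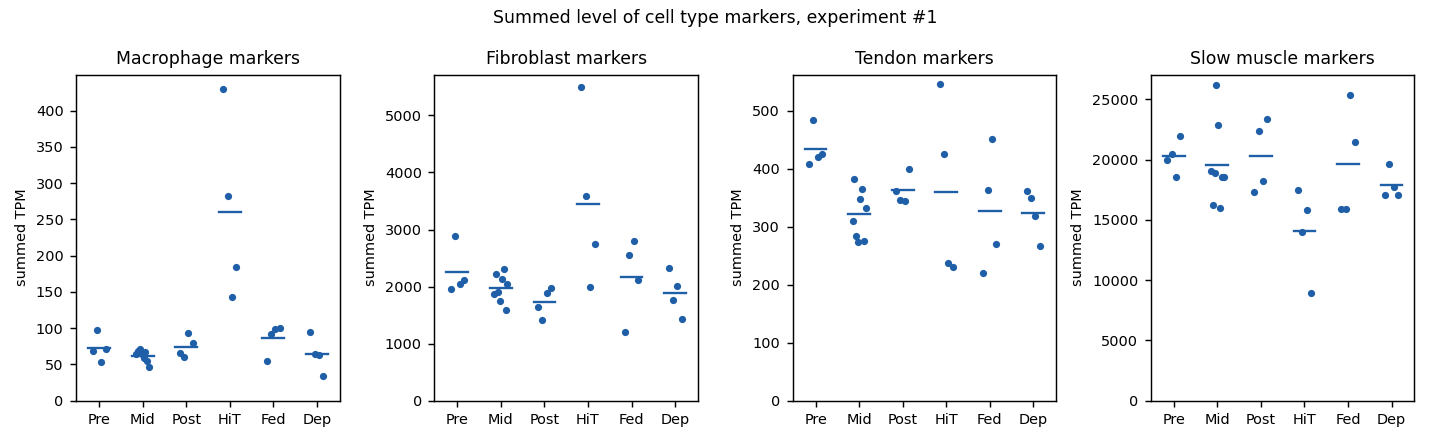
Summed TPM of macrophage, fibroblast, tendon and slow muscle markers in experiment #1 by group, with 1 point per library and a bar for the mean. The macrophage sum of all 4 HiT libraries (143 to 430 TPM) is above that of every other library, whereas the tendon sum of HiT (231 to 546 TPM) overlaps that of each other group.

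Between Pre and Mid of experiment #1, 4 of the 9 promoters were up-regulated and 2 were down-regulated at an FDR below 0.05 (edgeR quasi-likelihood test), against 30.2% of all promoters that passed (15.4% up and 14.8% down). The up-regulated ones were those of the strain sensors Ankrd2, Xirp1, Ankrd1 and Csrp3. The down-regulated ones were those of the matrix genes Tnc and Chad. The median log2 fold change of the 9 promoters was 0.27, and that of all promoters was 0.01. The Mid libraries are also part of the HiT values by which some of the genes were picked.

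Ankrd2 had 568, 669, 580 and 754 TPM in the 4 Pre libraries, and from 1119 to 2262 TPM (median 1642) in the 8 Mid libraries. The groups did not overlap. The log2 fold change was 1.49 ± 0.14 (SE, FDR = 3.61e-08). Ankrd1 had 29.4, 34.6, 28.9 and 34.4 TPM in Pre and 45.6 to 106.6 TPM (median 65.1) in Mid, again without overlap, as for 1.72% of all promoters. Its log2 fold change was 1.16 ± 0.17 (SE, FDR = 9.62e-06).

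Xirp1 had 435, 384, 375 and 653 TPM in Pre and 650 to 1549 TPM (median 1293) in Mid. The groups met only where the highest Pre library passed the lowest Mid library. The log2 fold change was 1.45 ± 0.20 (SE, FDR = 4.92e-06). Csrp3 had 104, 95.7, 99.2 and 153 TPM in Pre and 132 to 288 TPM (median 191) in Mid, with a log2 fold change of 0.92 ± 0.17 (SE, FDR = 0.000185). Here too Pre replicate 4 was the library that overlapped the Mid libraries.

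Chad moved the other way. It had 153, 199, 177 and 209 TPM in Pre and 71.9 to 136 TPM (median 93.3) in Mid. The Mid libraries were all lower, as for 8.22% of all promoters, and the log2 fold change was −0.80 ± 0.20 (SE, FDR = 0.00345). Tnc had 7.496, 6.85, 3.503 and 6.69 TPM in Pre and 2.04 to 4.46 TPM (median 2.74) in Mid, with a log2 fold change of −0.98 ± 0.29 (SE, FDR = 0.0111). Only the lowest Pre library lay within the Mid range. Without Pre replicate 1, the FDR of Tnc was 0.0545.

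Of 9 clusters of 8 tendon markers, 1 fell from the Pre to Mid and 8 did not pass, where 14.8% of all promoters fell. Their summed level was 408 to 484 TPM in Pre and 274 to 382 TPM in Mid, and Scx, the tendon cell transcription factor scleraxis, was at 25.5 to 37.8 TPM in Pre and 9.93 to 21 TPM in Mid. Tnmd, the mature tendon marker tenomodulin, overlapped more, with 60.8 to 87.3 TPM against 44.0 to 69.1 TPM. The part of tendon in the lower Tnc and Chad was not tested.

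Between Mid and Post, 4 of the 9 promoters passed the FDR, 2 up and 2 down (35% of all promoters did, 17.5% in each direction), and the strain sensors parted ways. Xirp1 fell to 359, 683, 465 and 442 TPM in Post, with a log2 fold change of −1.30 ± 0.19 (SE, FDR = 1.13e-05). Only the highest Post library lay above the lowest Mid library. Ankrd1 fell to 37.5, 46.7, 42.7 and 50.2 TPM, with a log2 fold change of −0.62 ± 0.16 (SE, FDR = 0.00396).

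Ankrd2 stayed within its Mid range, at 1359, 1895, 1483 and 1710 TPM in Post, and its log2 fold change of −0.10 ± 0.13 (SE) did not pass (FDR = 0.607). Csrp3 likewise had 164, 236, 192 and 243 TPM in Post (243.5 at the highest), and its log2 fold change from the Mid was 0.03 ± 0.16 (SE, FDR = 0.922). Both were higher in Post than in Pre. The log2 fold change from the Pre to Post was 1.39 ± 0.15 (SE, FDR = 7.97e-06) for Ankrd2 and 0.94 ± 0.19 (SE, FDR = 0.0081) for Csrp3.

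These were the only 2 of the 9 promoters to pass from the Pre to Post, where 1.85% of all promoters passed (1.05% up). In both, every Post library was above every Pre library. With library sizes without TMM normalization, Csrp3 did not pass (FDR = 0.136). Ankrd1 was also higher in each Post library than in any Pre library, with a log2 fold change of 0.54 ± 0.18 (SE), but did not pass (FDR = 0.152). Non-overlapping higher levels in Post were found for 1.23% of all promoters.

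The matrix genes that were down-regulated in Mid rose in Post of experiment #1. Tnc was at 6.01, 4.03, 5.63 and 5.73 TPM (log2 fold change 0.87 ± 0.29 (SE), FDR = 0.0221), and only its lowest Post library lay within the Mid range. Chad was at 166, 146, 119 and 172 TPM (log2 fold change 0.59 ± 0.20 (SE), FDR = 0.025). Neither passed without Post replicate 1 (FDR = 0.0941 for Tnc and 0.12 for Chad), and Tnc did not pass without Post replicate 3 either (FDR = 0.0563). Scx was at 18.3 to 28.5 TPM in Post.

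**Figure D3:**
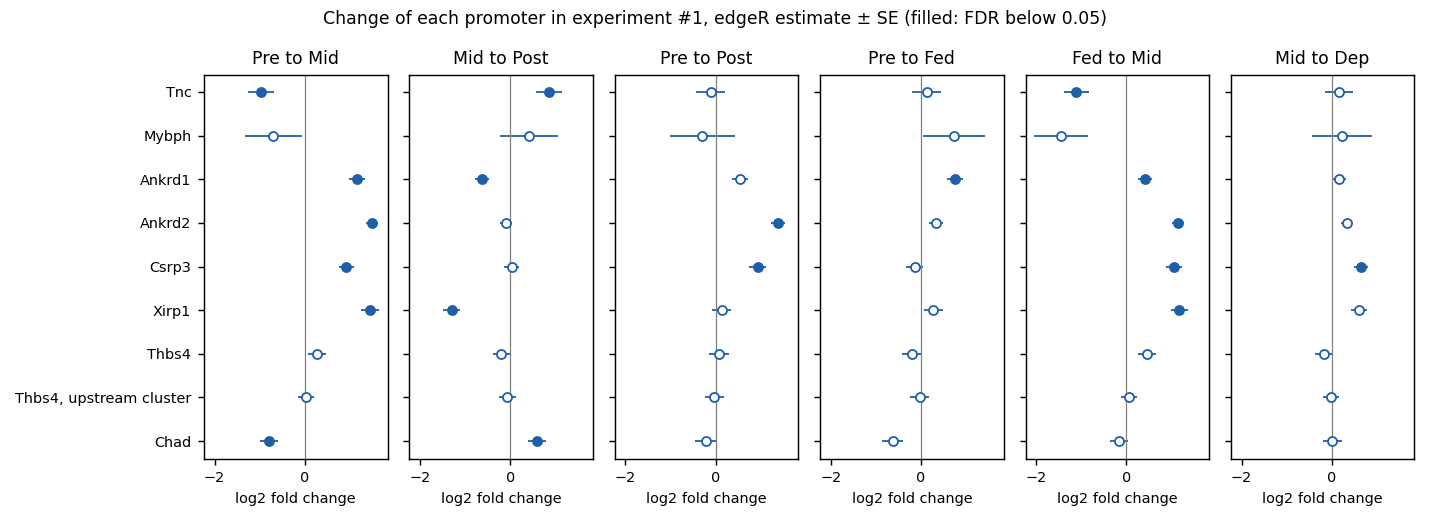
Log2 fold change of each promoter in 6 comparisons of experiment #1 (edgeR estimate, bars are the SE, filled points have an FDR below 0.05, and positive values are higher in the second group named). Ankrd2, Csrp3, Xirp1 and Ankrd1 are up-regulated in Mid against both Pre and Fed, and Ankrd2 and Csrp3 are the 2 filled points from the Pre to Post. The call of Ankrd1 against Fed is near the threshold (FDR = 0.046) and was lost without TMM and in other alternative fits.

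The Fed group shared the day and the temperature of the Mid group but, by the methods of the paper, kept its food. From the Fed to Mid, 4 of the 9 promoters were up-regulated and 1 was down-regulated, against 35.2% of all promoters (16.6% up and 18.6% down). Ankrd2 had 771, 698, 708 and 1118 TPM in Fed, and every Mid library was higher, if only by a little for the lowest. Its log2 fold change was 1.15 ± 0.14 (SE, FDR = 7.15e-07). Non-overlapping higher levels in Mid were found for 1.41% of all promoters.

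Xirp1 had 495, 549, 487 and 726 TPM in Fed (log2 fold change 1.18 ± 0.19 (SE), FDR = 4.34e-05), and Csrp3 had 88.9, 92.9, 77.0 and 158 TPM (log2 fold change 1.06 ± 0.17 (SE), FDR = 3.15e-05). In both, the highest Fed library overlapped the lowest Mid library. Ankrd1 had 45.5, 46.4, 74.8 and 53.0 TPM in Fed, of which the lowest was just under the range of Mid and the others were inside it, and its log2 fold change of 0.41 ± 0.16 (SE) was near the threshold (FDR = 0.046). The call was lost without TMM (FDR = 0.379), when only Fed and Mid were fitted (FDR = 0.0918), and in the exact permutation test on log2(TPM + 0.1) (two-sided p = 0.202). It was also lost without Mid replicate 1, 2 or 7 (FDR = 0.0536, 0.057 and 0.0508) and without Fed replicate 1, 2 or 4 (FDR = 0.135, 0.112 and 0.117).

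Tnc was lower in Mid than in Fed, where it had 2.78, 8.10, 11.9 and 4.71 TPM, by a log2 fold change of −1.11 ± 0.28 (SE, FDR = 0.00345). The groups overlapped in the lowest Fed library. Mybph had 11.6, 4.52, 0.882 and 3.07 TPM in Fed and 0.360 to 6.72 TPM in Mid, as few as 10 tags in a library, and its log2 fold change of −1.45 ± 0.60 (SE) did not pass (FDR = 0.0622). It ranged from −2.12 to −0.64 when single libraries were left out, and passed without Mid replicate 2 (FDR = 0.00332) or Fed replicate 3 (FDR = 0.0179). Thbs4 had 0.46 ± 0.19 (SE) for the same log2 fold change, which did not pass either (FDR = 0.0682) but did in DESeq2 (FDR = 0.0388) and without Mid replicate 4 or 5 (FDR = 0.0407 and 0.048).

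From the Pre to Fed, Ankrd1 alone of the 9 promoters passed, with a log2 fold change of 0.75 ± 0.18 (SE, FDR = 0.015), where 11.2% of all promoters passed (5.88% up). Its Fed libraries were all above its Pre libraries, as for 10.5% of all promoters. Without TMM its FDR was 0.121. Ankrd2 (0.33 ± 0.15 (SE), FDR = 0.145) did not pass with all libraries but did without Fed replicate 3 (0.44, FDR = 0.0431).

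Chad was lower in every Fed library (87.5, 143, 152 and 99.1 TPM) than in any Pre library, as for 1.89% of all promoters. Its log2 fold change of −0.63 ± 0.24 (SE) did not pass in edgeR (FDR = 0.0809) and did in DESeq2 (FDR = 0.0458). Thus the Fed level of Chad lay between those of Pre and Mid and passed against neither in edgeR with all libraries and no replicate block (with the block, FDR = 0.0343 against Pre). The Fed levels of Ankrd2, Csrp3 and Xirp1 passed against Mid but, with all libraries, not against Pre.

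The Dep group was fasted like Mid but was kept out of torpor. Its strain sensor levels overlapped those of Mid or lay above them. Csrp3 had 238, 333, 303 and 298 TPM in Dep, all but the lowest above every Mid library, and was the 1 promoter of the 9 to pass from the Mid to Dep, with a log2 fold change of 0.65 ± 0.16 (SE, FDR = 0.0326), where 2.03% of all promoters passed (1.16% up). The call was lost without TMM (FDR = 0.422) and when only Mid and Dep were fitted (FDR = 0.0978). It was also lost without Mid replicate 2, 3 or 5 (FDR = 0.058, 0.0597 and 0.0555) and without Dep replicate 2 or 4 (FDR = 0.14 and 0.136).

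Xirp1 had 1296, 2019, 1820 and 1567 TPM in Dep, with a log2 fold change from the Mid of 0.60 ± 0.18 (SE, FDR = 0.0758, and 0.0334 in DESeq2). Ankrd2 had 1964, 2114, 1758 and 2090 TPM, all within the range of Mid, with a log2 fold change of 0.34 ± 0.13 (SE, FDR = 0.141). Ankrd1 had 54.6, 107.2, 65.3 and 52.5 TPM, where the second library exceeded the highest Mid library by less than 1 TPM. Tnc (2.31 to 3.99 TPM) and Chad (73.1 to 117 TPM) in Dep also lay within the range of Mid. Of the Dep libraries, 1 had 41.0 TPM of the 2 neutrophil markers with a cluster (of 6), against at most 1.67 TPM in all other libraries of experiment #1, and its part in these values was not tested.

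By mean level in experiment #1, Ankrd2 ran from Dep (1982 ± 163 TPM, SD) over Mid (1722 ± 406), Post (1612 ± 238) and HiT (1561 ± 369) to Fed (824 ± 199) and Pre (643 ± 87.0). Xirp1 ran from Dep (1675 ± 313 TPM, SD) over Mid (1202 ± 309) and HiT (1143 ± 372) to Fed (564 ± 111), Post (487 ± 138.5) and Pre (462 ± 130.5). Csrp3 ran from HiT (391 ± 90.0 TPM, SD) over Dep (293 ± 39.8), Post (209 ± 37.4) and Mid (204 ± 50.3) to Pre (113 ± 26.9) and Fed (104 ± 36.6). In all 3 genes the libraries of neighbouring groups overlapped.

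Neither cluster of Thbs4 passed in edgeR with all libraries in any tested comparison. The main cluster had 170 to 492 TPM over the 28 libraries of experiment #1, with group means between 221 and 280 TPM. The highest value was that of Mid replicate 3, and no group stood apart. The upstream cluster had 4.14 to 14.3 TPM, with group means between 7.78 and 9.94 TPM. In HiT, replicates 1 and 2 (396 and 320.5 TPM at the main cluster) were above replicates 3 and 4 (186 TPM in each), and the upstream cluster had the same order, with 11.4, 9.80, 5.75 and 4.14 TPM. Mybph did not pass in edgeR with all libraries either.

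Experiment #2 gave a second, smaller set of mice. From the Pre to Mid, Ankrd2, Csrp3 and Xirp1 passed again (3 of 9 promoters, all up, against 9.74% of all promoters in either direction and 5.3% up). Ankrd2 had 976 and 1273 TPM in Pre and 3463, 1675, 2842, 2228 and 2528 TPM in Mid (log2 fold change 1.24 ± 0.25 (SE), FDR = 0.0138). Xirp1 had 474 and 509 TPM in Pre and 2618, 911, 1224, 1256 and 1199 TPM in Mid (1.62 ± 0.37 (SE), FDR = 0.0223). Csrp3 had 13.2 and 11.9 TPM in Pre and 22.1, 18.6, 16.5, 19.7 and 22.2 TPM in Mid (0.72 ± 0.17 (SE), FDR = 0.0225).

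For these 3 genes and Ankrd1 the Mid libraries were all above the Pre libraries, as for 11.8% of all promoters. Ankrd1 did not pass, however (FDR = 0.229), with 22.8 and 25.5 TPM in Pre and 28.7 to 87.0 TPM in Mid. Tnc did not pass either (FDR = 0.339), with 8.09 and 9.21 TPM in Pre and 2.21 to 8.84 TPM in Mid. With only 1 Pre library none of the 9 promoters passed: without Pre replicate 5 the FDRs of the 3 genes were 0.0993 to 0.152, and without Pre replicate 6 they were 0.0725 to 0.176. Chad had 88.1 and 179 TPM in Pre and 37.6 to 120 TPM in Mid, with a log2 fold change of −0.88 ± 0.38 (SE, FDR = 0.184). It passed without Mid replicate 10 (−1.15, FDR = 0.0478). The log2 fold change of Chad was −1.29 without Pre replicate 5 and −0.31 without Pre replicate 6.

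Between Mid and Post of experiment #2, Xirp1 and Csrp3 were down-regulated (2 of 9 promoters, against 16.4% of all in either direction and 8.65% down), and their Post libraries were all below their Mid libraries (8.41% of all promoters). Xirp1 had 470, 443 and 569 TPM in Post (log2 fold change −1.64 ± 0.32 (SE), FDR = 0.00551). Csrp3 had 12.8, 14.98 and 13.8 TPM (−0.61 ± 0.14 (SE), FDR = 0.0144). All 3 Post libraries were on lane 4 and 4 of the 5 Mid libraries were on lane 3. With lane as a term, Csrp3 still passed and Xirp1 did not (−1.45, FDR = 0.108). The 1 Mid library on lane 4, replicate 13, had 1199 TPM of Xirp1, above the 3 Post libraries of that lane. Csrp3 did not pass without Post replicate 5 (FDR = 0.0625) or Post replicate 7 (FDR = 0.055).

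Ankrd2 again remained high, with 2130, 2119 and 2576 TPM in Post and a log2 fold change from the Mid of −0.25 ± 0.21 (SE, FDR = 0.465). Ankrd1 had 24.2, 22.1 and 29.8 TPM in Post and 87.0, 30.5, 36.3, 28.7 and 31.1 TPM in Mid, with a log2 fold change of −0.83 ± 0.36 (SE, FDR = 0.145). Without Mid replicate 9, which held the highest value, it was −0.39 and passed (FDR = 0.0404). Neither matrix gene passed from the Mid to Post of experiment #2. Tnc had 3.71, 4.83 and 6.45 TPM in Post (FDR = 0.984), within its Mid range. Chad had 69.6, 103 and 88.95 TPM in Post (FDR = 0.669), and its groups overlapped too.

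**Figure D4:**
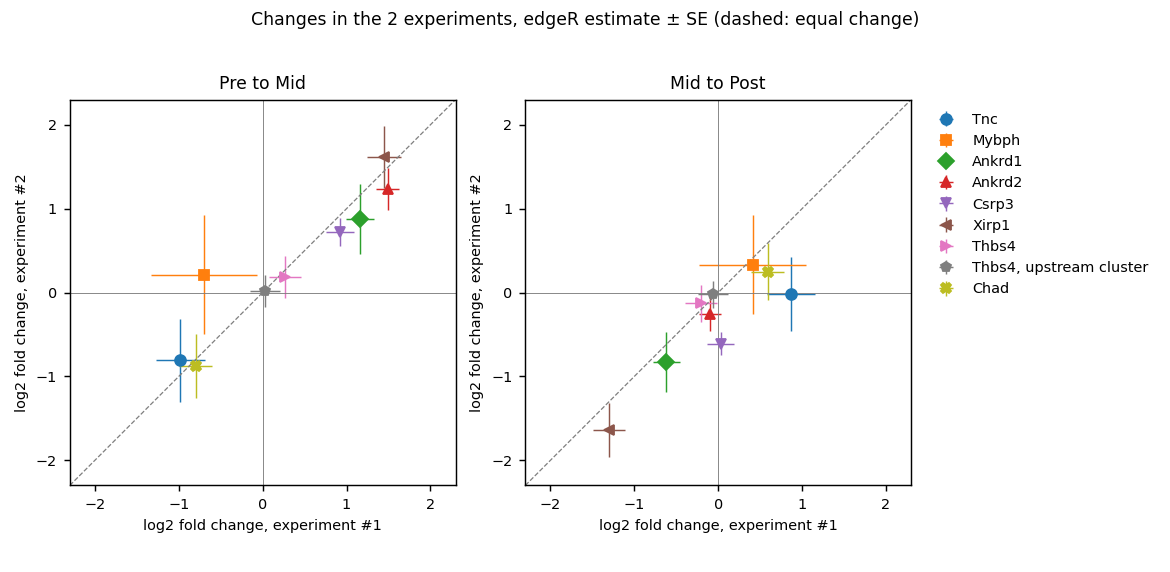
Log2 fold change (edgeR estimate, bars are the SE) of each promoter in experiment #1 (horizontal) and experiment #2 (vertical), for Pre to Mid at left and Mid to Post at right, with a dashed line for equal change. From the Mid to Post, Xirp1 lies at −1.30 and −1.64, and Csrp3 lies at 0.03 and −0.61.

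In the fit of all 38 libraries, the difference between the experiments passed for none of the 9 promoters and none of all 10819 promoters by edgeR, in either comparison. At an unadjusted p below 0.05, 551 and 682 of all promoters differed (5.09% and 6.3%), and DESeq2 called 12 and 1. Csrp3 from the Mid to Post was the 1 of the 9 promoters at that level, with a difference of −0.63 ± 0.25 in log2 fold change (SE, unadjusted p = 0.0164, FDR = 0.767). For Csrp3 the Post value was close to the Mid value in one experiment and close to the Pre value in the other, while the test of that difference did not pass after adjustment.

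The level of Csrp3 itself was far lower in experiment #2. Its log2 ratio of experiment #2 to experiment #1 over Pre, Mid and Post was −3.47, which is 11.1-fold lower, and 0.743% of 10773 promoters had a ratio as low. The median ratio of all promoters was −0.01, with 5% below −1.08 and 5% above 1.78. The other 8 promoters lay between −0.62 (Ankrd1) and 0.62 (Ankrd2). The experiments differ in mice and in library batch. The methods of the paper also name a NextSeq and a HiSeq platform for experiments #1 and #2. Mice, library batch and platform cannot be told apart.

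Other genes of muscle mechanics went both ways. Of 43 clusters of 29 other Z-disc and I-band genes, 8 rose, 4 fell and 31 did not pass between Pre and Mid, where 15.4% of all promoters rose and 14.8% fell, with a median log2 fold change of 0.14. The largest changes were those of Hspb1 (0.98 ± 0.13 (SE), FDR = 4.24e-06), a small heat shock protein of the sarcomere, Flnc (0.86 ± 0.13, FDR = 1.9e-05), the Z-disc filamin, and a cluster of the titin gene Ttn (0.80 ± 0.22, FDR = 0.0064). That Ttn cluster peaked at base 76868085 and was low, with a mean of 6.61 TPM in Pre and 10.8 TPM in Mid. From the Mid to Dep, 1 of the 43 clusters rose and 1 fell (2.03% of all promoters passed), Hspb8 (0.33 ± 0.09 (SE), FDR = 0.0438), a chaperone of filamin turnover, and Fhl3 (−0.58 ± 0.15, FDR = 0.0427), a LIM protein.

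Of 22 clusters of 20 target genes and factors of the YAP/TEAD and MRTF/SRF routes, which carry tension to the nucleus, 4 rose and 2 fell from the Pre to Mid (30.2% of all promoters were called). Their median log2 fold change was −0.14. Among those that rose were the matricellular genes Ccn2 (1.23 ± 0.25 (SE), FDR = 0.000506), with 35.3 to 57.6 TPM in Pre and 46.4 to 140 TPM in Mid, and Ccn1 (0.87 ± 0.15, FDR = 9.17e-05), with 85.7 to 133 TPM in Pre and 98.8 to 225 TPM in Mid. The groups overlapped in both.

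Of 20 clusters of 18 matrix genes of loaded muscle and tendon, 2 rose and 1 fell from the Pre to Mid, and 17 did not pass (30.2% of all promoters were called). Lox, which cross-links collagen, rose (1.16 ± 0.21 (SE), FDR = 0.000201), as did Thbs2 (0.41 ± 0.13, FDR = 0.0146), and Itga7, the laminin receptor of fibers, fell (−0.50 ± 0.10, FDR = 0.000655). The median of the list was −0.06. From the Mid to Dep, 1 of the 20 passed (2.03% of all promoters did), Thbs1 (0.54 ± 0.13 (SE), FDR = 0.0276).

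Of 18 clusters of 17 regeneration and injury genes, 4 rose and 6 fell from the Pre to Mid, against 30.2% of all promoters that were called, with a median of 0.21. The largest changes went both ways. Ccl2, a chemokine that draws monocytes, fell (−2.68 ± 0.54 (SE), FDR = 0.000461), with 0.490 to 9.23 TPM in Pre, 0 to 1.20 TPM in Mid and 12.95 to 24.2 TPM in HiT.

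Myod1, the myogenic regulator, fell from 16.3 to 21.7 TPM in Pre to 1.62 to 9.58 TPM in Mid (−2.17 ± 0.29 (SE), FDR = 3.88e-06). Cdkn1a, the cell cycle inhibitor p21, rose (2.11 ± 0.26, FDR = 1.54e-06). From the Mid to Dep, 1 of the 18 passed (2.03% of all promoters did), the myogenic factor Myf6 (0.76 ± 0.16 (SE), FDR = 0.0163). By level without a test, the median log2 fold change from the HiT to Mid was −0.80 for this list and −0.65 for the matrix list, and it was 0.09 for the Z-disc and I-band list, against 0.02 for all promoters.

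The promoters whose levels were most like those of each gene were sought among 9432 clusters by Pearson's r of log2(CPM + 0.5) over the 28 libraries of experiment #1. These r values are descriptions, since the libraries share groups and depth. For Xirp1 the nearest were both clusters of Tnfrsf12a, the TWEAK receptor of injured and denervated muscle (r = 0.97), and Pde4d, a cyclic AMP phosphodiesterase (r = 0.97). They held at 0.97 or 0.98 without HiT and at 0.96 or 0.97 over the 10 libraries of experiment #2.

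For Ankrd2 they were Arpp19 (r = 0.93), a phosphatase 2A inhibitor, Psmd11 (0.92), a proteasome subunit, and Rnf114 (0.90), with r between 0.83 and 0.95 in experiment #2. For Csrp3 they were Usp28, Arpp19 and Hspb8 (r = 0.90 for each), with r between 0.57 and 0.73 in experiment #2. Thus Arpp19 was among the 3 nearest of both genes.

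The nearest to the genes that were high in HiT rested in part on that group. Tnc was nearest to Pdpn (r = 0.97, and 0.83 without HiT), Cd44 (0.96 and 0.80) and Il13ra1 (0.96 and 0.74), genes of cell adhesion and cytokine reception. Mybph was nearest to Il13ra1 (r = 0.90, and 0.54 without HiT), Ddost (0.89 and 0.59) and Myog, the myogenic factor myogenin (0.89 and 0.35). Ankrd1 was nearest to Tubb6, a tubulin (r = 0.98, and 0.86 without HiT), Sbno2 (0.95 and 0.63) and the fibronectin receptor Itga5 (0.94 and 0.68).

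Thbs4 and Chad had weaker neighbours. Thbs4 was nearest to Aebp1 (r = 0.83 over experiment #1 and 0.80 over experiment #2), Col12a1 (0.70 and 0.26) and Tgm2 (0.69 and 0.10). Chad was nearest to Col8a2 (r = 0.81 and 0.69), Daam2 (0.80 and 0.73) and Gas1 (0.79 and 0.48). None of these promoters was shared between the 2 genes.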

How the data were processed

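Soleus RNA of 38 mice was measured by nAnT-iCAGE with 1 library per mouse. Per the labels and the paper, BWA and HISAT2 aligned the trimmed reads to mm10 (versions not given in the sources used here), and PromoterPipeline grouped the 5′ ends into clusters. The authors deposited the tag counts of 10819 clusters per library without normalization. The deposited TPM are the same counts per 1000000 mapped tags, including tags outside clusters, and were used for levels. Tags in clusters numbered 18257657 to 39176649 per library in experiment #1 and 9359994 to 20914855 in experiment #2, and no pair of libraries of a group agreed within sampling noise (lowest chi-square per cluster 12.4 over 72 pairs). Values of under 50 tags, such as some of those of Mybph outside HiT, are limited by counting error. In experiment #1 the Mybph values outside HiT ran from 10 tags in a Mid library to 226 tags in a Fed library. Of the 9 promoters, all passed filterByExpr in both experiments.

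Groups came from the sample titles. Clusters were assigned to GENCODE vM21 5′ ends within 500 bp. The counts were fitted with edgeR 4.0.16 in R 4.3.3 (TMM, quasi-likelihood test, group as the only term), over 10776 clusters with any tag in experiment #1 and 10816 in experiment #2. FDR is the Benjamini-Hochberg adjusted p over the clusters of each comparison, and promoters under 0.05 were called. The difference between experiments was tested over all 38 libraries. The alternatives were no TMM, filterByExpr, DESeq2 1.42.0, the replicate number as a block, a fit of only the groups compared, each library left out in turn, exact permutation tests on log2(TPM + 0.1) and a window of 100 bp. Lane as a term was added after seeing the data. The scripts were tested on simulated data.

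The genes named are the members, the 3 clusters of other genes most like each (mean of at least 1 CPM), and up to 3 clusters of each of 4 gene lists that passed from the Pre to Mid or from the Mid to Dep. A result that this rule would name is not reported here. The members and lists were chosen with earlier results of these data known. Genes of near-identical copies were not separated further, and other assays of the study were not analysed here. The promoter sequences are from RefSeq on GRCm38.p6.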

Additional observations from a re-analysis of the deposited data

Results flagged for a closer look

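Of 63 groups of 4 to 8 libraries examined over the 9 promoters, 7 held a library far from the rest by Dixon's test, and chance alone gives about 1 in 20 groups. Mid replicate 2 of experiment #1 held 3 of them, with Mybph at 6.72 TPM (the next library at 1.74 TPM), Ankrd1 at 107 TPM (next 68.1 TPM) and the upstream cluster of Thbs4 at 14.3 TPM (next 9.67 TPM). Without it, Ankrd1 changed by 1.05 on the log2 scale from Pre to Mid in place of 1.16, and the log2 fold change of Mybph from Fed to Mid was −2.12 in place of −1.45 and passed in edgeR (FDR = 0.00332). Mid replicate 9 of experiment #2 held Ankrd1 at 87.0 TPM (next 36.3 TPM) and Xirp1 at 2620 TPM (next 1260 TPM), and without it the log2 fold change of Xirp1 from the Pre to Mid was 1.28 in place of 1.62. Pre replicate 4 held Csrp3 at 153 TPM (next 104 TPM), and without it the log2 fold change of Csrp3 from the Pre to Mid was 1.07 in place of 0.92. Mid replicate 3 held Thbs4 at 492 TPM (next 327 TPM), and without it the log2 fold change of Thbs4 from the Fed to Mid was 0.29 in place of 0.46. No promoter of the 9 differed between the experiments in its change at an FDR below 0.05 in edgeR.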

How the results depend on the processing

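Library sizes without TMM shifted the median over all promoters by −0.12 (log2) from the Fed to Mid and by at most 0.1 in size elsewhere. They lowered the promoters called to 1458 (Pre to Mid), 1630 (Mid to Post), 21 (Pre to Post), 2181 (Fed to Mid), 9 (Mid to Dep) and 6 (Pre to Fed), and those among the 9 to 1 (Pre to Post), 0 (Mid to Dep) and 0 (Pre to Fed). The percentage of calls that were higher went from 51 to 36.6 (Pre to Mid), from 47.1 to 23.3 (Fed to Mid), from 57.1 to 77.8 (Mid to Dep), from 52.5 to 33.3 (Pre to Fed) and, in experiment #2, from 47.2 to 62.2 (Mid to Post). DESeq2 called 326 promoters (Pre to Post), 479 (Mid to Dep, 2 of the 9), 2 of the 9 (Pre to Fed), and 12 and 1 for the difference between experiments. Fits of only the groups compared called 2 (Mid to Dep, 0 of the 9) and 631 (Pre to Fed), and Ankrd1 from the Pre to Post passed in them (FDR = 0.00334). Lane as a term gave 485 (Mid to Post of experiment #2, 1 of the 9). Leaving out single libraries gave ranges of 2467 to 3555 calls (Pre to Mid), 2877 to 4164 (Mid to Post), 67 to 140 (Pre to Post), 2943 to 4075 (Fed to Mid), 46 to 357 (Mid to Dep), 192 to 1973 (Pre to Fed), and in experiment #2 260 to 1320 (Pre to Mid) and 1190 to 1849 (Mid to Post). Of the 9, they gave 5 to 6, 2 to 4, 2 to 2, 4 to 6, 0 to 1, 1 to 2, 0 to 4 and 1 to 3. The uncalled log2 fold change of Csrp3 from the Mid to Post ranged from −0.03 to 0.08. The cause was not tested. Replicate numbers did not pair the libraries, since 60 pairs with the same number had a mean r of −0.03 (−0.58 to 0.45) and 5 of 24 libraries correlated best with their own number. The replicate block gave 407 calls (Mid to Dep), 2 of the 9 (Pre to Fed, with Chad at −0.66, FDR = 0.0343) and −0.02 for Csrp3 from the Mid to Post, and changed no other call of the 9. In experiment #2 no paired analysis was possible because the groups compared share no number. Fold changes of 52 further uncalled pairs of promoter and comparison are not printed, and none was called under any setting. The sign of 67 of their 579 recomputed values changed.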
